A study of Homo sapiens with 18 samples.

Results

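The comparison described here is the difference between the responses of 2 human cancer cell lines to the same named siRNA against BLM. For each gene, the change from control to BLM.siRNA1 in A549, a lung adenocarcinoma line, was set against the change from control to BLM.siRNA1 in MDA-MB-231, a triple-negative breast cancer line with mesenchymal traits. All 12 libraries of the 4 groups A549.CTL, A549.BLM.siRNA1, MB231.CTL and MB231.BLM.siRNA1 were used, 3 per group, out of 18 libraries in the series. The other libraries carry 2 further BLM siRNAs in A549 alone. The study set out to profile genes regulated by BLM in cancer cells. Both lines were grown in DMEM with fetal bovine serum, and all 4 groups were transfected, the 2 CTL groups with a control siRNA. The protocols name both a flat culture near confluence and a 3D culture for RNA extraction without saying which library came from which. The siRNA sequences were not used here, so that siRNA1 is the same molecule in both lines rests on its shared name. Each line is a single established line, and no label says whether the 3 replicates of a group were grown separately, so every p-value below rests on a replicate spread that may be technical.

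BLM is a RecQ DNA helicase. With topoisomerase IIIα, RMI1 and RMI2 it takes apart the crossed DNA structures that recombination leaves between sister chromatids, and it helps stalled replication forks restart. Loss of BLM in the germline causes Bloom syndrome, with raised sister chromatid exchange and a high cancer risk. In most cell types damage at replication forks is read by checkpoint kinases and by p53, which halts the cell cycle through p21, the product of CDKN1A, and which in turn lets the DREAM repressor complex shut the genes of replication and mitosis. A549 carries a loss of KEAP1 function that leaves the antioxidant factor NRF2 active.

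The libraries held between 30143047 and 40328208 expected counts, and 12479 of 27968 genes in the files had a CPM (read counts per gene scaled to a common library size) of at least 1 in 3 or more libraries of each line and were tested. A further 1306 genes reached that level in A549 alone and 1093 in MDA-MB-231 alone, so they are outside the comparison. Most markers of each line were higher in the libraries labelled as that line, with exceptions. ALDH1A1 and AKR1B10, which A549 expresses strongly, averaged 6350 and 2220 CPM in A549 controls and 0.0602 and 0.501 in MDA-MB-231 controls, whereas MMP1 averaged 3250 CPM in MDA-MB-231 controls and 0.211 in A549 controls. Against the labels went NKX2-1, a lung marker that averaged 0.00939 CPM in A549 controls and 6.69 in MDA-MB-231 controls, and SPARC, a mesenchymal marker that averaged 22.8 CPM in A549 controls and 0.721 in MDA-MB-231 controls. The alveolar genes SFTPC and SFTPB were at or near 0 in A549. The 12 leukocyte markers summed to 26.7 to 31.4 CPM in A549 controls and 26.8 to 28.9 with siRNA1, and to 196 to 217 and 189 to 202 CPM in MDA-MB-231. In MDA-MB-231 controls and with siRNA1, CD68, a lysosomal protein, averaged 198 and 183 CPM and CD14 6.02 and 8.08. CD8A averaged 1.97 and 2.81 CPM there and LYZ 1.93 and 0.721. In A549 CD68 averaged 21.1 and 19.4 CPM, CD14 4.28 and 3.58 and ITGAM 2.81 and 3.76. PTPRC, CD3D and CD3E stayed at 0.284 CPM or below in every library.

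BLM itself stood at 85.2, 88.3 and 77.3 CPM in the A549 controls and at 1.28, 1.27 and 1.25 with siRNA1. In MDA-MB-231 it stood at 33.3, 35.5 and 35.4 CPM in the controls and at 5.19, 5.01 and 5.12 with siRNA1. Every siRNA1 library was below every control of its line. The log2 fold change was -6.04 ± 0.09 (SE, n = 3 libraries per group here and below) in A549 and -2.77 ± 0.07 in MDA-MB-231. The knockdown was therefore deeper in A549, by 3.28 ± 0.12 on the log2 scale (edgeR quasi-likelihood test, Benjamini-Hochberg adjusted p = 2.03e-11), and its part in the differences below was not tested. These are bulk RNA measurements, in which fewer cells of a kind and less RNA per cell cannot be told apart.

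The siRNA1 response was larger and wider in A549. At an adjusted p under 0.05, 9892 genes (79.3%) differed from control in A549, 4864 higher (39.0%) and 5028 lower (40.3%), against 7053 genes (56.5%) in MDA-MB-231, 3452 higher (27.7%) and 3601 lower (28.9%). The median absolute log2 fold change was 0.545 in A549 and 0.273 in MDA-MB-231, with nearly equal median standard errors of 0.0879 and 0.0872. The response differed between the lines for 8505 genes (68.2%), of which 3984 (31.9%) had the higher value in A549 and 4521 (36.2%) the lower, and for 2735 of the 8505 the difference was at least 1 on the log2 scale. Across the 12479 genes the log2 fold changes of the lines, which share no library, had a Pearson correlation of 0.429 and a Spearman correlation of 0.379, given as a description since genes are not independent. The directions depended on the scaling: of the called genes, 49.2% were higher in A549 and 48.9% in MDA-MB-231, and of the called differences 46.8% were higher, against 59.2%, 62% and 51.8% when scaled by library totals and 64.6%, 60% and 60% for the deposited TPM values (a length-scaled unit, used as log2 of TPM plus 1). Those scalings put the median gene at 0.156 and 0.217 in A549 and at 0.1 and 0.0765 in MDA-MB-231, and upper quartile factors put it at 0.105 and 0.072, so shifts of that size carry no direction. With 68.2% of all genes called, a call by itself sets no gene apart, so sizes and directions are given throughout.

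Genes were sorted by the pair of responses. Opposite responses, called in both lines with opposite signs and differing between them, were found for 1595 genes (12.8%), 893 higher in A549 and lower in MDA-MB-231 (7.16%) and 702 the reverse (5.63%). Responses called in A549, not called in MDA-MB-231 and differing between them covered 3368 genes (27.0%), 1628 higher (13.0%) and 1740 lower (13.9%). The matching class for MDA-MB-231 held 855 genes (6.85%), 520 higher (4.17%) and 335 lower (2.68%). Shared responses, called in both with the same sign, covered 4213 genes (33.8%), 1979 higher (15.9%) and 2234 lower (17.9%), which is 42.6% of the A549 calls and 59.7% of the MDA-MB-231 calls. Of the 5808 genes called in both lines, 72.5% had the same sign. Most opposite responses were small in at least 1 line, and only 61 genes (0.489%) had opposite log2 fold changes of size 1 or more in both. Of the 702 genes that fell in A549 and rose in MDA-MB-231, 5 are the identical copies RNA45SN1 to RNA45SN5 of the ribosomal RNA precursor, with 1 set of values (log2 fold change -0.60 in A549, with overlapping groups, and 2.31 in MDA-MB-231) counted 5 times from libraries in which ribosomal RNA had been depleted.

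**Figure D1:**
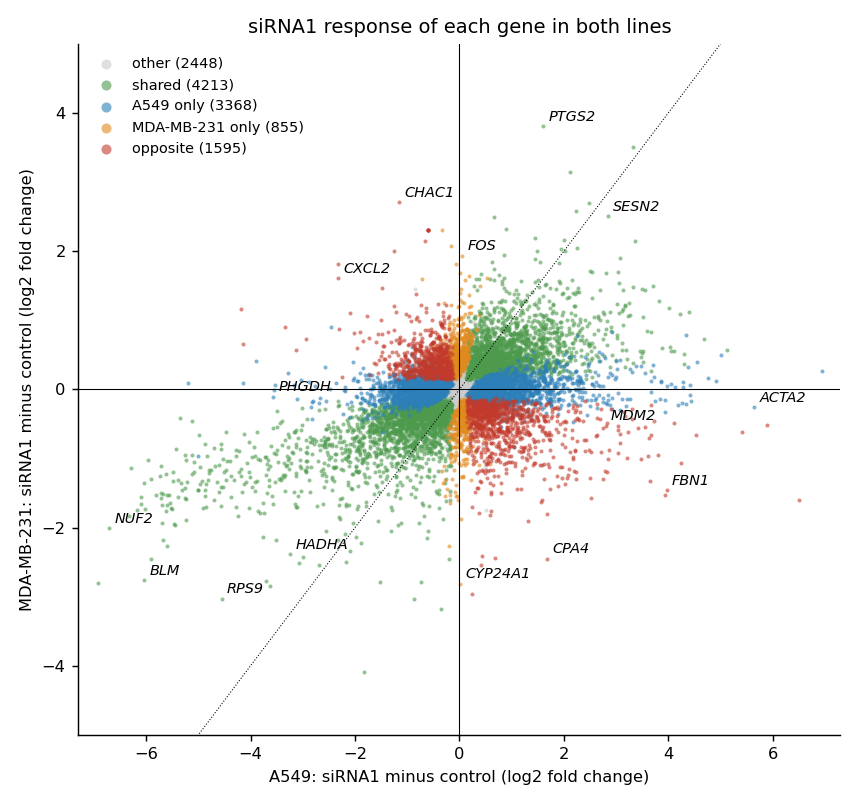
Log2 fold change of each of the 12479 tested genes with siRNA1 in A549 (horizontal axis) and in MDA-MB-231 (vertical axis), coloured by kind of response; the dotted line marks equal changes. The cloud is wider along the A549 axis, BLM, RPS9 and NUF2 lie low in both lines, CHAC1 and CXCL2 lie in the upper left and FBN1 and CPA4 in the lower right.

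Genes of the integrated stress response and amino acid synthesis often went opposite ways, 12 of 24 doing so (background 12.8%). In this pathway kinases that sense amino acid shortage, ER stress, double-stranded RNA or haem lack phosphorylate eIF2α, which favours translation of ATF4, and ATF4 with C/EBP partners then turns on genes for amino acid synthesis, uptake and tRNA charging. Of 24 tested members of 25 listed, 14 fell and 7 rose in A549 (backgrounds 40.3% and 39.0%), whereas 19 rose and 1 fell in MDA-MB-231 (27.7% and 28.9%). The difference was called lower in A549 for 21 and higher for 1 (backgrounds 36.2% and 31.9%). Opposite responses with A549 lower numbered 11 (background 5.63%), and 1 gene, SLC7A5, was opposite with A549 higher. The median log2 fold change of the list was -0.47 in A549 and 0.722 in MDA-MB-231, beside -0.0036 and 0.0066 over all genes tested. Under DESeq2 size factors, upper quartile factors, library totals and TPM values, 9 of the 11 kept their class in all 4, CTH and VLDLR did not, and SLC7A5 lost its class under 3 of these and in the fits without the first or the third siRNA1 library or the first or the second control of MDA-MB-231 (differences 0.73, 0.66, 0.66 and 0.69).

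Asparagine synthetase and the glutathione-degrading enzyme CHAC1 are textbook ATF4 targets, and their promoters are shown because the element through which ATF4 and C/EBP factors are known to act lies in them. The sequences run 5′ to 3′ on the gene's strand up to its start, from RefSeq on GRCh38.p14, ASNS at chr7:97872409-97872508 (minus strand) and CHAC1 at chr15:40953251-40953470 (plus strand). Capitals mark a match to TGATGNAA on either strand.
ASNS: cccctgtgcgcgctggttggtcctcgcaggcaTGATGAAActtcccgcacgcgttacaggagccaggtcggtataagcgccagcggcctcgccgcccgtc
CHAC1: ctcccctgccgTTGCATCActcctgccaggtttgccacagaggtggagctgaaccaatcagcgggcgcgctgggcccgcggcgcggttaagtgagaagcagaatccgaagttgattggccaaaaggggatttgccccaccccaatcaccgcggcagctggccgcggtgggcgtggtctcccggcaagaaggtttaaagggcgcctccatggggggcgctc
Of the 21 members with a promoter in the table, which spans 250 bases before to 50 after the start, 5 (23.8%) held the motif, against 3.67% of all 27305 promoters. The 5 were ASNS, CHAC1, ATF3, SLC3A2 and SLC7A1, whose responses fall into different classes. A match is a run of letters and not a measured binding site.

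ASNS stood at 121, 137 and 110.1 CPM in A549 controls and at 28.5, 28.1 and 29.3 with siRNA1. In MDA-MB-231 its control libraries held 36.0, 41.1 and 38.3 CPM and its siRNA1 libraries 77.9, 88.8 and 80.6. Within neither line did the groups overlap, and siRNA1 left ASNS below every MDA-MB-231 control in A549 and above every control in MDA-MB-231. ASNS fell by 2.098 ± 0.08 in A549 and rose by 1.1 ± 0.08 in MDA-MB-231 on the log2 scale, a difference of -3.20 ± 0.12 (edgeR adjusted p = 2.12e-11). CHAC1 went from 4.81, 6.86 and 5.55 CPM to 2.95, 1.97 and 2.79 in A549. It went from 4.78, 4.06 and 4.48 CPM to 26.7, 34.3 and 26.2 in MDA-MB-231. The control levels of CHAC1 were close in the 2 lines, and the siRNA1 levels were the lowest and the highest of the 4 groups. The difference in response was -3.86 ± 0.23 (edgeR adjusted p = 3.62e-09).

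The factor itself moved the same way. ATF4 fell from 291, 308 and 282 CPM to 105, 102 and 108 in A549, and rose from 226, 241 and 222 to 392, 403 and 411 in MDA-MB-231. Its partner CEBPG changed by -0.88 and 0.74 in A549 and MDA-MB-231, respectively. MTHFD2, the mitochondrial folate enzyme that feeds one-carbon units to purine synthesis, had the largest drop among the opposite members, from 357, 386 and 338 CPM to 42.1, 43.3 and 37.2 in A549, beside 53.9, 55.0 and 58.1 and 84.3, 83.5 and 79.4 in MDA-MB-231. The other opposite members were the cystine transporter SLC7A11 (log2 fold change -1.11 in A549 and 0.70 in MDA-MB-231), the arginine transporter SLC7A1 (-1.25 and 0.20), the serine synthesis enzyme PSAT1 (-1.15 and 0.27), the mitochondrial PEP carboxykinase PCK2 (-0.79 and 0.59), the cystathionine lyase CTH (-0.53 and 1.01) and the lipoprotein receptor VLDLR (-0.20 and 0.34). SLC7A1 was not called in MDA-MB-231 without the second siRNA1 or the third control library of that line, where its difference was -1.43 and -1.40, and VLDLR was not called in A549 without the second siRNA1 library of A549 (-0.47).

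Not all of the list split. PHGDH, which makes the first step of serine synthesis, fell in A549 from 55.9, 60.4 and 58.0 CPM to 5.35, 4.68 and 4.61, while its MDA-MB-231 libraries overlapped at 16.6, 14.2 and 11.8 and 13.0, 12.6 and 13.9. SHMT2, the mitochondrial serine hydroxymethyltransferase, behaved alike, with a fall of 1.97 in A549 and a value of -0.11 that was not called in MDA-MB-231. DDIT3, ATF3 and PPP1R15A, the stress-induced CHOP and ATF3 factors and the phosphatase subunit that ends the response, rose in both lines but more in MDA-MB-231, with log2 fold changes of 0.86 and 1.94 for DDIT3, 1.44 and 2.19 for ATF3 and 0.42 and 1.67 for PPP1R15A. SESN2, which holds back mTORC1 and is also a p53 target, rose from 9.51, 8.99 and 10.9 to 72.4, 63.0 and 75.0 CPM in A549 and from 12.7, 13.2 and 11.4 to 62.9, 80.5 and 68.0 in MDA-MB-231, and the difference of 0.33 ± 0.15 was not called (edgeR adjusted p = 0.063).

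**Figure D2:**
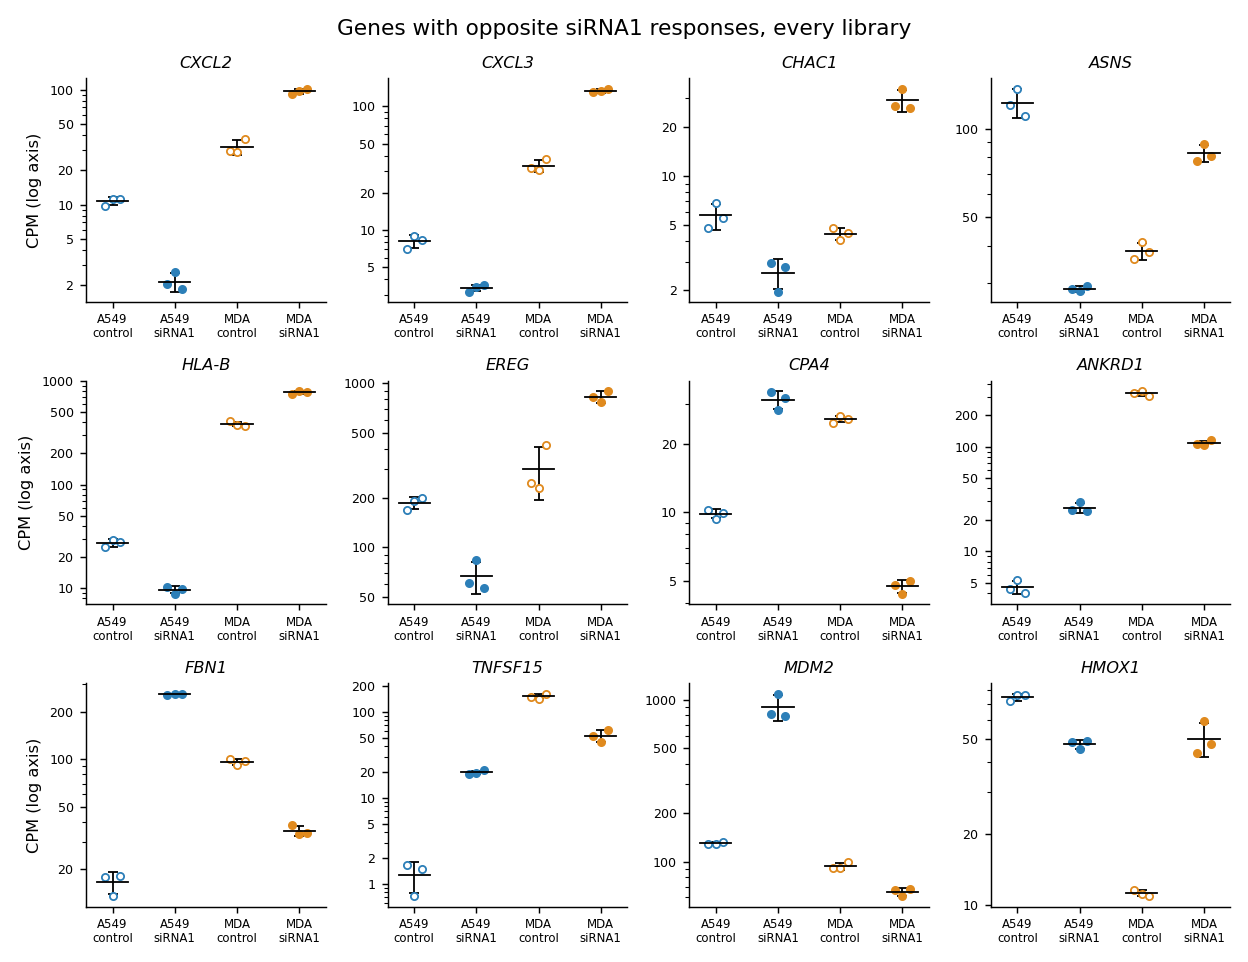
CPM on a log axis in every library for 12 genes with opposite responses, with A549 in blue and MDA-MB-231 (MDA) in orange, open circles for control and filled for siRNA1; bars are the mean and SD of 3 libraries. CXCL2, CXCL3, CHAC1, ASNS, HLA-B, EREG and HMOX1 fell in A549 and rose in MDA-MB-231, and CPA4, ANKRD1, FBN1, TNFSF15 and MDM2 did the reverse.

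Inflammatory genes also split. NF-κB dimers, held in the cytoplasm by IκB proteins until a kinase cascade frees them, drive chemokines, adhesion molecules and their own subunits and inhibitors. Of 21 tested members of 31 listed, 15 fell and 5 rose in A549 (backgrounds 40.3% and 39.0%), and 13 rose and 6 fell in MDA-MB-231 (27.7% and 28.9%), the 6 being near the background. In this list 8 were opposite with A549 lower (background 5.63%), namely CXCL2, CXCL3, RELB, NFKB2, NFKBIE, SOD2, LIF and TNFAIP3, and CSF1 was opposite the other way. The list's median was -0.55 in A549 and 0.388 in MDA-MB-231. Of the 8, 6 kept their class under all 4 other scalings, whereas SOD2 and TNFAIP3 did not.

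CXCL2 and CXCL3 encode neutrophil-attracting chemokines that bind CXCR2. The genes are close relatives whose reads may be divided between them, and both promoters are printed because each holds the same kappa B match. They are given 5′ to 3′ on the minus strand up to the start, from RefSeq on GRCh38.p14, CXCL2 at chr4:74099196-74099295 and CXCL3 at chr4:74038690-74038789, with the match to the kappa B motif (searched on both strands) in capitals.
CXCL2: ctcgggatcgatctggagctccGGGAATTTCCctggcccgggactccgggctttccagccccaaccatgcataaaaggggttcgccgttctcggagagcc
CXCL3: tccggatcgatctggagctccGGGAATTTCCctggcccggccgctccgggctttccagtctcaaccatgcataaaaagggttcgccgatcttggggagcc
Of the 24 members with a promoter in the table, 12 (50%) held the motif, against 1.92% of all promoters.

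CXCL2 stood at 9.70, 11.3 and 11.2 CPM in A549 controls and at 2.02, 2.57 and 1.83 with siRNA1. In MDA-MB-231 it went from 29.3, 28.5 and 37.4 CPM to 91.1, 96.5 and 102. The groups were separate within each line, and the gap between the lines widened from both sides, by 3.93 ± 0.18 in all (edgeR adjusted p = 2.00e-10). CXCL3 went from 7.10, 9.02 and 8.32 to 3.19, 3.44 and 3.57 CPM in A549 and from 31.9, 30.6 and 37.3 to 129.8, 133 and 139.5 in MDA-MB-231. RELB and NFKB2, which form the non-canonical NF-κB dimer, changed by -0.64 ± 0.11 and -1.34 ± 0.07 in A549 and by 1.12 ± 0.12 and 0.36 ± 0.07 in MDA-MB-231. ICAM1, an adhesion receptor for leukocytes, fell by 2.05 in A549 with a value of 0.13 in MDA-MB-231 that was not called, although under upper quartile factors, library totals and TPM values it was called higher there. CXCL8 rose in both lines (0.57 and 0.70), as did PTGS2, the inducible cyclooxygenase, whose libraries went from 38.9, 29.9 and 39.0 to 101, 124 and 102 CPM in A549 and from 114, 105 and 192 to 1896, 1805 and 2072 in MDA-MB-231. PTGS2 thus rose 3.81 on the log2 scale in MDA-MB-231 and 1.60 in A549. CCL2, a monocyte chemokine, fell in both, by 0.73 and 2.78.

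Epiregulin (EREG), a ligand of the EGF receptor, followed the chemokines. It stood at 168, 191 and 199 CPM in A549 controls and 60.3, 83.7 and 56.2 with siRNA1, and at 248, 229 and 424 CPM in MDA-MB-231 controls and 822, 769 and 899 with siRNA1. The third MDA-MB-231 control was well above the other two, yet below every siRNA1 library. The difference in response was -2.94 ± 0.28 (edgeR adjusted p = 3.58e-07). Amphiregulin (AREG), its neighbour in the family, fell in both lines (-1.55 and -0.48).

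Among 23 tested targets of NRF2, the factor that induces glutathione, thioredoxin and iron-handling genes, 12 fell and 7 rose in A549 (backgrounds 40.3% and 39.0%) and 15 rose and 2 fell in MDA-MB-231 (27.7% and 28.9%). The 6 opposite members all had A549 lower (background 5.63%), and the medians were -0.188 and 0.624. HMOX1, haem oxygenase 1, went from 71.7, 76.2 and 76.1 to 48.4, 45.1 and 48.7 CPM in A549. In MDA-MB-231 it went from 11.6, 11.1 and 10.97 to 43.4, 59.1 and 47.4 CPM, so that the siRNA1 levels of the lines overlapped from controls that had been far apart. GCLC, the catalytic subunit of the rate-limiting enzyme of glutathione synthesis, went from 418, 418 and 375 to 138, 166 and 134 CPM in A549 and from 39.1, 36.9 and 42.0 to 61.0, 60.4 and 60.5 in MDA-MB-231. TXNRD1, thioredoxin reductase, changed by -0.34 ± 0.05 and 0.95 ± 0.05, and with TPM values it was not opposite. SRXN1 (-0.38 and 0.65), the ferritin light chain FTL (-0.42 and 0.47) and SLC7A11, which is counted in the stress list as well, made up the 6. NQO1 was not called in A549 (-0.11) and rose by 0.31 in MDA-MB-231.

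Of 27 tested genes of hypoxia and glycolysis, 16 rose and 2 fell in MDA-MB-231 (backgrounds 27.7% and 28.9%). In A549 12 rose and 10 fell, near the backgrounds of 39.0% and 40.3%, and the difference was called lower in A549 for 18 (background 36.2%). Hexokinase 2 (HK2) fell in A549 from 5.34, 5.77 and 6.54 CPM to 1.41, 1.47 and 1.63 and rose in MDA-MB-231 from 314, 323 and 299.9 to 446, 510.4 and 469, and was the 1 opposite member of 3 that kept its class under all 4 other scalings (ALDOC and PDK1 did not). The glucose transporter SLC2A3 rose alike in both lines, from 39.4, 37.4 and 35.7 to 142, 156 and 139 CPM in A549 and from 34.2, 38.5 and 35.3 to 140.3, 156 and 145 in MDA-MB-231, a difference of -0.08 ± 0.10 that was not called (edgeR adjusted p = 0.503).

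HLA-B, a classical MHC class I heavy chain, stood at 24.8, 29.4 and 27.7 CPM in A549 controls and 10.3, 8.79 and 9.93 with siRNA1. In MDA-MB-231 it went from 407, 376 and 371 to 748, 798 and 774 CPM. The difference was -2.503 ± 0.10 (edgeR adjusted p = 8.12e-11), although reads of class I genes can be divided among near-identical family members. Of 15 tested genes of MHC class I presentation, 6 rose and 5 fell in A549, near the backgrounds of 39.0% and 40.3%, and 7 rose and 0 fell in MDA-MB-231 (27.7% and 28.9%). HLA-C and HLA-E rose in both lines. The immunoproteasome subunit PSMB9 fell by 1.75 in A549, and its MDA-MB-231 value of 0.21 was not called, although under the same 3 scalings as for ICAM1 it was called higher there. Among 30 tested interferon-stimulated genes of 40 listed, 18 rose and 6 fell in A549 (backgrounds 39.0% and 40.3%) and 17 rose and 4 fell in MDA-MB-231 (27.7% and 28.9%). The 4 that were opposite are close to the background of 12.8%. Those with A549 lower were OASL (-1.77 and 1.06), HERC5 (-0.96 and 0.66) and ISG20 (-0.76 and 0.80), and IFITM2 went the other way, a class it lost under library totals. IFIH1, the cytoplasmic RNA sensor MDA5, rose by 1.08 and 1.04. SAMD9L and MX1 rose in A549 (2.12 and 1.29) and were not called in MDA-MB-231 (0.16 and -0.16), though SAMD9L was called higher in both lines under 3 of the 4 other scalings.

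The reverse pattern, higher in A549 and lower in MDA-MB-231, included genes of the extracellular matrix and of YAP-TEAD signalling. YAP and TAZ enter the nucleus when cells spread on a stiff matrix, bind TEAD factors and induce matricellular proteins such as CTGF and CYR61, and the matrix in turn signals through integrins. Of 32 tested matrix and integrin genes of 40 listed, 17 rose and 9 fell in A549 (backgrounds 39.0% and 40.3%), and 3 rose and 21 fell in MDA-MB-231 (27.7% and 28.9%). Here 11 were opposite with A549 higher (background 7.16%), 10 of them under all 4 other scalings, and the medians were 0.402 and -0.36. Of 20 tested YAP-TEAD targets, 13 rose and 7 fell in A549 and 2 rose and 14 fell in MDA-MB-231, against the same backgrounds. The 8 opposite genes with A549 higher (background 7.16%) were so under all 4 other scalings, and the medians were 0.49 and -0.413. GADD45B was opposite the other way, also under all 4. Fibroblast marker genes summed to 14.5 to 16.2 CPM in A549 controls and to 34.8 to 41.9 with siRNA1, mostly COL1A1, which is also in the matrix list, and to 20.3 to 21.3 and 23.2 to 23.9 CPM in MDA-MB-231. From A549 controls to siRNA1, COL1A1 averaged 4.31 and 25.3 CPM, COL3A1 0.75 and 2.26, LUM 0.128 and 1.49 and PDGFRA 0.32 and 0.961, whereas THY1 averaged 9.36 and 8.11, and DCN and COL1A2 stayed at or below 0.0272 CPM on average in A549. The part of these genes in the matrix result was not tested.

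FBN1 encodes fibrillin 1, the backbone of the microfibrils that store latent TGF-β. It went from 17.9, 13.4 and 18.3 CPM to 257, 261 and 260.2 in A549 and from 100.01, 91.9 and 97.8 to 38.0, 33.3 and 34.1 in MDA-MB-231. The order of the lines was thus turned around by siRNA1, with a difference in response of 5.43 ± 0.14 (edgeR adjusted p = 6.35e-13). COL17A1, a hemidesmosomal collagen of basal epithelium, had the largest positive difference of any gene past the level set for naming, 6.04 ± 0.15, from 1.15, 1.38 and 1.23 to 53.1, 50.8 and 56.9 CPM in A549 and from 27.4, 27.8 and 25.0 to 15.8, 19.6 and 16.7 in MDA-MB-231. HSPG2, the basement membrane proteoglycan perlecan, rose from 222, 186 and 262 to 925, 795 and 1005 CPM in A549 and fell from 319.8, 285 and 278 to 113, 109 and 118 in MDA-MB-231. The adhesive glycoproteins thrombospondin 1 (THBS1) and tenascin C (TNC) changed by 1.62 ± 0.08 and 1.69 ± 0.17 in A549 and by -1.30 ± 0.08 and -1.07 ± 0.08 in MDA-MB-231. TNC remained at 2.66, 2.57 and 3.28 CPM in A549 with siRNA1, far below the 201, 184 and 208 CPM left in MDA-MB-231. Further opposite members were COL5A1, COL7A1, COL12A1, LAMA3, LAMA4 and ITGA3, with A549 values from 0.50 (LAMA3) to 1.84 (COL5A1) and MDA-MB-231 values from -0.89 (LAMA4) to -0.29 (LAMA3). COL7A1 was not called in MDA-MB-231 without its first control library (difference 1.58). The integrin subunit ITGB3 went the other way (-1.36 and 0.33), but was not called in MDA-MB-231 without the third siRNA1 library there (difference -1.61).

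ANKRD1, a nuclear ankyrin protein that is among the most responsive YAP targets, rose from 4.39, 5.28 and 4.02 to 24.7, 29.5 and 24.5 CPM in A549 and fell from 326, 340.1 and 306 to 106, 105 and 115 in MDA-MB-231. CTGF, a secreted matricellular protein, rose from 14.2, 14.6 and 15.2 to 23.4, 26.6 and 23.7 CPM and fell from 239, 246 and 260.4 to 106, 104 and 104. In each gene the MDA-MB-231 libraries stayed above all A549 libraries, so that siRNA1 narrowed the gap between the lines. CYR61 (0.53 and -0.99), the receptor kinase AXL (0.33 and -0.86), NUAK2 (0.55 and -1.06), AMOTL1 (0.45 and -0.64), MYOF (0.63 and -0.49) and AJUBA (0.53 and -0.31) were the other members of the 8. NT5E, the cell surface enzyme that makes adenosine, fell in both (-1.77 and -1.36).

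Ranked by the smaller of their changes in the 2 lines, the 10 highest genes opposite with A549 higher included FBN1, HSPG2 and ANKRD1, described above. Carboxypeptidase A4 (CPA4) went from 10.2, 9.36 and 9.99 to 34.0, 28.2 and 32.0 CPM in A549 and from 24.9, 26.6 and 25.9 to 4.78, 4.37 and 4.997 in MDA-MB-231. TNFSF15, a TNF family cytokine, went from 1.65, 0.718 and 1.505 to 19.3, 19.5 and 21.0 CPM in A549 and from 151, 144 and 165 to 52.4, 45.2 and 62.1 in MDA-MB-231. The groups of CPA4 and TNFSF15 were separate within each line. Throughout, genes named for the size of their changes were likely to show separate groups through that choice. The axon guidance ligand SEMA3E changed by 1.58 ± 0.12 and -1.60 ± 0.14, LINC02582 by 1.68 ± 0.12 and -1.81 ± 0.12, COBLL1 by 1.31 ± 0.11 and -1.91 ± 0.15, CRISPLD2 by 1.74 ± 0.12 and -1.45 ± 0.11, and C1orf226 by 1.89 ± 0.16 and -1.40 ± 0.13. In the reverse direction the same rule gave, beside genes already described, the synaptic vesicle priming factor UNC13A (-2.32 ± 0.12 and 0.87 ± 0.15), the DNA-binding protein ARID3B (-0.94 ± 0.10 and 0.99 ± 0.09), LOC728392 (-1.02 ± 0.12 and 1.09 ± 0.13) and UCKL1-AS1 (-0.97 ± 0.25 and 1.06 ± 0.24, with overlapping A549 groups). UCKL1-AS1 is antisense to UCKL1, and whether the counting used strand is not given in the sources used here.

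Most epithelial genes rose in A549, and few rose in MDA-MB-231. Of 23 tested junction and keratin genes of 30 listed, 15 rose and 5 fell in A549 (backgrounds 39.0% and 40.3%), and 2 rose and 11 fell in MDA-MB-231 (27.7% and 28.9%). The opposite genes, 6 with A549 higher (background 7.16%), included KRT8, KRT80, ELF3, PKP2 and EPCAM, of which EPCAM lost the class under 3 of the 4 other scalings and in 6 fits that left out a library, and without the filter on low values. Keratin 8, a simple-epithelium filament with many processed copies in the genome, went from 2116, 2126 and 2196 to 5409.7, 4702 and 5802 CPM in A549 and from 514, 495 and 408 to 295, 322 and 308 in MDA-MB-231. Keratin 19 rose from 44.2, 49.2 and 48.0 to 299, 267 and 301 CPM in A549, whereas its MDA-MB-231 groups overlapped. E-cadherin (CDH1) rose by 1.70 in A549 and was not called in MDA-MB-231 (-0.18). The sum of the 11 A549 marker genes, scaled over all genes in the files, was higher too, from 13100 to 14000 CPM in A549 controls to 25900 to 27100 with siRNA1, ALDH1A1 alone averaging 10900 CPM with siRNA1. That list shares KRT8, KRT18 and CDH1 with the epithelial genes, and its part in the result was not tested.

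More mesenchymal and contractile genes rose than fell in A549, as among epithelial genes. Of 17 tested of 25 listed, 11 rose and 4 fell in A549 (backgrounds 39.0% and 40.3%) and 4 rose and 7 fell in MDA-MB-231 (27.7% and 28.9%). Smooth muscle actin (ACTA2) went from 2.66, 2.35 and 2.65 to 128, 125 and 132 CPM in A549, with overlapping groups at 3.63, 4.20 and 4.03 and 3.65, 3.49 and 2.79 in MDA-MB-231. Its value in MDA-MB-231, -0.26 ± 0.11, missed the threshold (edgeR adjusted p = 0.057), and it was called lower there when the first control or the first siRNA1 library of MDA-MB-231 was left out (difference 5.96 and 5.98). TAGLN (transgelin) and SNAI2 (Slug) rose by 3.16 and 2.67 in A549, and the fall of TAGLN in MDA-MB-231 (-0.32) came from overlapping groups and was lost in 4 of the fits that left out a library there. Vimentin was not called in A549 (-0.05) and fell by 0.65 in MDA-MB-231. SNAI1 (Snail) fell by 1.56 in A549 and rose by 0.81 in MDA-MB-231, against the direction of SNAI2.

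Of 17 tested matrix proteases and inhibitors of 25 listed, 8 rose and 8 fell in A549 (backgrounds 39.0% and 40.3%). In MDA-MB-231 7 rose and 7 fell (27.7% and 28.9%), and 7 were opposite between the lines (background 12.8%). The proteases MMP9, MMP19 and CTSL and the urokinase receptor PLAUR fell in A549 and rose in MDA-MB-231, and the inhibitors TIMP2, TIMP3 and TIMP4 rose in A549 and fell in MDA-MB-231. All 7 kept their class under the 4 other scalings. MMP9 (gelatinase B) went from 2.29, 2.61 and 3.45 to 0.186, 0.145 and 0.116 CPM in A549, a few reads per library with siRNA1, and from 7.28, 7.45 and 6.74 to 14.7, 17.5 and 16.1 in MDA-MB-231. TIMP3 went from 1.54, 1.52 and 2.13 to 5.40, 5.12 and 5.14 CPM in A549 and from 1770.4, 1734 and 1660.0 to 837, 709 and 879.5 in MDA-MB-231. The inhibitor TIMP1 rose by 0.61 in MDA-MB-231 and was not called in A549 (0.14). MMP14, the membrane protease, rose by 1.46 in A549 and was not called in MDA-MB-231 (0.21).

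All 29 tested p53 targets of 32 listed rose in A549 (background 39.0%), against 10 rising and 6 falling in MDA-MB-231 (backgrounds 27.7% and 28.9%). The difference was higher in A549 for 28 of 29 (background 31.9%), SESN2 being the exception, and the medians were 1.65 and 0.096. CDKN1A, the cyclin-dependent kinase inhibitor p21, rose in both lines, from 64.8, 69.1 and 72.0 to 1010.2, 891 and 1009.5 CPM in A549 and from 228, 217 and 189 to 471, 566 and 500.4 in MDA-MB-231. The levels in MDA-MB-231 controls were above those in A549 controls, and the order was the reverse with siRNA1. MDM2, the ubiquitin ligase that p53 induces and that degrades p53, went from 128, 129 and 131 to 821, 1092 and 792 CPM in A549 and from 90.7, 90.8 and 99.3 to 66.4, 60.8 and 67.9 in MDA-MB-231.

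A further 5 p53 targets were opposite with A549 higher, and all 6 were so under all 4 other scalings (background 7.16%). POLH, a translesion polymerase, rose from 30.4, 25.9 and 26.7 to 72.7, 77.6 and 74.1 CPM and fell from 77.8, 77.2 and 76.8 to 38.2, 36.9 and 35.5. DDB2, which finds ultraviolet lesions for nucleotide excision repair, changed by 1.65 ± 0.09 and -0.63 ± 0.10, and CYFIP2 by 2.82 ± 0.08 and -0.49 ± 0.09. CCNG1 and PLK2 had smaller changes (0.32 and -0.66 for CCNG1, 0.78 and -0.53 for PLK2). The death receptor FAS, the ferredoxin reductase FDXR and ZMAT3 were among 13 that rose in A549 and were not called in MDA-MB-231 (background 13.0%). The A549 values of FAS, FDXR and ZMAT3 were 2.92, 2.89 and 2.31. The BH3-only protein PUMA (BBC3) and the stress cytokine GDF15 rose in both, BBC3 by 3.04 and 1.70 and GDF15 by 2.51 and 1.71.

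Regulators of cell death downstream of several pathways did not move as 1 block. MCL1, a survival protein with a short half-life, fell from 324, 347 and 328 to 170.0, 203 and 168 CPM in A549 and rose from 609, 601 and 638 to 969.6, 1033 and 1033 in MDA-MB-231. BCL2L11 (BIM) was opposite in the same direction (-0.62 and 0.44). BMF and PMAIP1 (NOXA), both BH3-only killers, rose in MDA-MB-231 by 1.69 and 1.26 and were not called in A549 (0.01 and 0.05). BAX rose in A549 by 0.94 and was not called in MDA-MB-231 (-0.05). ID2, an inhibitor of basic helix-loop-helix factors that BMP and TGF-β signals control, went from 219, 253 and 208 to 94.1, 111 and 88.3 CPM in A549 and from 1.06, 0.854 and 1.000 to 2.13, 2.40 and 1.84 in MDA-MB-231, while its relatives ID1 and ID3 rose in both lines.

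**Figure D3:**
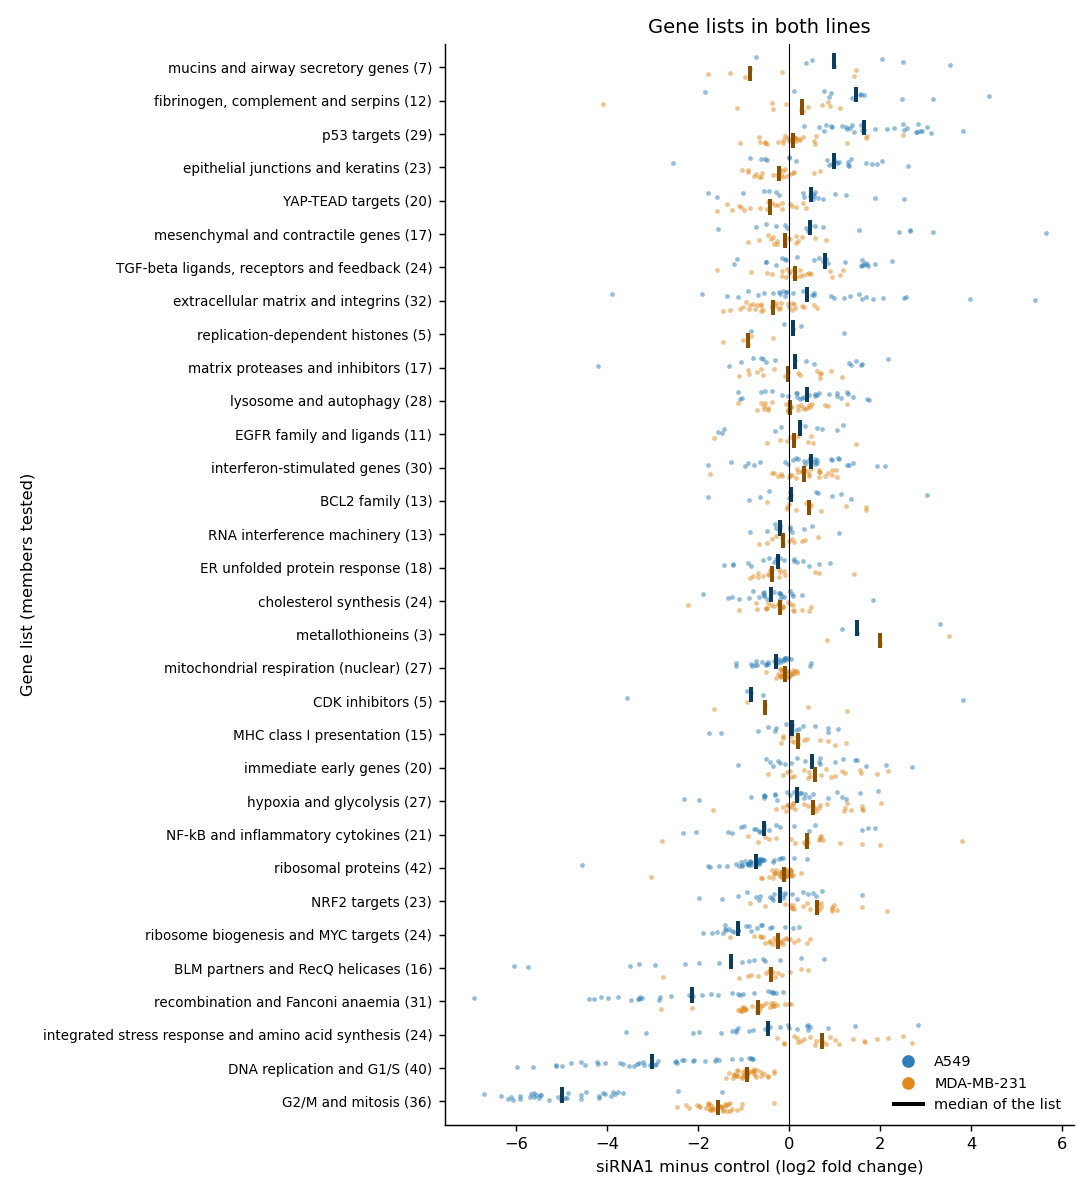
Log2 fold change with siRNA1 of every tested member of 32 gene lists (horizontal axis), A549 in blue and MDA-MB-231 in orange, with the list medians as bars, ordered by the median difference. Mitotic and replication genes lie left of 0 in both lines and further left in A549, and the integrated stress response has medians of -0.47 in A549 and 0.722 in MDA-MB-231.

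Responses seen in A549 and bounded near 0 in MDA-MB-231 (at least 1 on the log2 scale in the responding line, with the 95% interval of the other within 0.5 of 0) numbered 444 higher (3.56%) and 284 lower (2.28%). After ACTA2 the highest were PLXNB3, a semaphorin receptor, with 1.76, 1.92 and 2.08 CPM in A549 controls and 40.4, 38.1 and 45.2 with siRNA1, beside 17.9, 16.9 and 15.3 and 18.2, 15.7 and 18.1 in MDA-MB-231. The epidermal proteins hornerin (HRNR) and filaggrin (FLG) rose by 4.34 ± 0.12 and 4.29 ± 0.19 in A549, with -0.21 ± 0.10 and 0.11 ± 0.15 in MDA-MB-231, although HRNR was called lower there in 3 of 23 alternative fits. TRIML2, TSPAN1, the Wnt ligand WNT9A and the phospholipase PLCB1 completed the 8 highest, between 3.22 (PLCB1) and 3.98 (TRIML2) in A549. The lowest after PHGDH were the Notch feedback protein NRARP (-3.16 ± 0.17 in A549), the ribosomal protein paralog RPL22L1 (-3.10 ± 0.15), the glycerol acyltransferase GPAT3 (-2.89 ± 0.08), TEX30 (-2.83 ± 0.15), the RNA polymerase III subunit POLR3G (-2.76 ± 0.22), the retinoic acid carrier CRABP2 (-2.68 ± 0.14) and the tRNA exporter XPOT (-2.67 ± 0.06). GPAT3 was called higher in MDA-MB-231 under 3 scalings and TEX30 lower there in 3 alternative fits. Without the second A549 siRNA1 library, HRNR (difference 4.75), TEX30 (-2.67) and XPOT (-2.48) were called lower in MDA-MB-231, as was CRABP2 without the third MDA-MB-231 control (-2.35).

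Nearly all ribosomal protein genes fell in A549. Of 42 ribosomal protein genes, 39 fell and 1 rose in A549 (background 40.3% lower), and 14 fell and 1 rose in MDA-MB-231 (28.9% lower). In 22 the fall was called in A549, not in MDA-MB-231, and differed between them (background 13.9%). The difference was lower in A549 for 36 (background 36.2%), and the medians were -0.719 and -0.117. These genes have many processed copies, among which reads can be divided. Of 24 genes of ribosome biogenesis and MYC targets, 21 fell in A549 and 15 in MDA-MB-231 (backgrounds 40.3% and 28.9%), 14 of them in both (17.9%) and 6 in A549 alone with a called difference (13.9%), with medians of -1.11 and -0.249. Fibrillarin (FBL) fell by 1.88 and 0.27, the latter not called without the second MDA-MB-231 control (difference -1.69). MYC itself fell by 1.11 in A549 and was not called in MDA-MB-231 (0.11).

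Responses seen in MDA-MB-231 and bounded near 0 in A549 were few, 23 higher (0.184%) and 23 lower (0.184%). FOS, the immediate early AP-1 subunit, held 3.95, 3.42 and 2.77 CPM in MDA-MB-231 controls and 11.7, 14.5 and 12.5 with siRNA1, and overlapped at 2.94, 2.44 and 2.87 and 2.79, 2.37 and 3.42 in A549. CEBPB, the C/EBP partner of ATF4, rose by 1.40 ± 0.13 in MDA-MB-231 with 0.01 ± 0.14 in A549. TRIB3, the pseudokinase that ATF4 induces, went from 26.4, 23.9 and 23.2 to 68.5, 83.7 and 77.8 CPM in MDA-MB-231 and overlapped in A549, but was called higher in A549 too in 5 of 23 alternative fits, among them the fit without the second A549 siRNA1 library (difference -1.26). NDRG1, a gene induced by hypoxia, rose by 1.36 ± 0.09 in MDA-MB-231, and its A549 value of 0.19 ± 0.09, with every siRNA1 library above every control, was called in 12 of the 23. BMF, CFAP300 and PMAIP1 were also among the 8 highest, with 1.69, 1.58 and 1.26.

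CYP24A1, the vitamin D 24-hydroxylase, fell in MDA-MB-231 from 15.3, 15.1 and 16.3 to 2.29, 2.24 and 2.13 CPM. In A549 it was abundant and overlapped, with 1209, 1153 and 1173 CPM in controls and 1129, 1264 and 1177 with siRNA1. The phosphodiesterase PDE4B went from 9.47, 9.15 and 9.14 to 2.44, 3.06 and 2.08 CPM in MDA-MB-231 and overlapped at 60.0, 57.0 and 58.7 and 58.3, 63.9 and 58.3 in A549. Both were called higher in A549 when scaled by library totals or TPM. ZNF488, F2RL2, the stress kinase MAP2K6, AP1S3, RASL11A and MYH15 followed, from -1.61 (ZNF488) to -1.27 (MYH15) in MDA-MB-231.

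Every gene of both cell cycle lists was in the shared class. All 36 genes of the G2/M and mitosis list and all 40 of DNA replication and G1/S fell in both lines (background of shared lower responses 17.9%). The medians were -4.99 in A549 and -1.55 in MDA-MB-231 for mitosis, and -3.00 and -0.927 for replication. The fall was larger in A549, with a called difference, for all 36 mitotic genes and for 36 of the 40 replication genes (background 10.9%). TYMS was the 1 that fell more in MDA-MB-231. Of 31 recombination and Fanconi anaemia genes, 28 fell in both.

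DREAM is known to bind CHR elements with CCAAT boxes nearby in mitotic promoters and E2F elements in replication promoters. PLK1 and ANLN are shown for the former and E2F2 for the latter, 5′ to 3′ on the gene's strand up to the start, from RefSeq on GRCh38.p14, PLK1 at chr16:23678809-23678888 (plus strand), ANLN at chr7:36389782-36389861 (plus strand) and E2F2 at chr1:23531234-23531313 (minus strand). Capitals mark CHR matches (TTTGAA or TTCGAA, or their complement), CCAAT, or the E2F letters TTTGGCGC.
PLK1: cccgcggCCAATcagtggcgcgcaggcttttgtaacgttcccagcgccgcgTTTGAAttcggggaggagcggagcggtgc
ANLN: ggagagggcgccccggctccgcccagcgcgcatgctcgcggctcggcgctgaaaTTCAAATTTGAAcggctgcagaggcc
E2F2: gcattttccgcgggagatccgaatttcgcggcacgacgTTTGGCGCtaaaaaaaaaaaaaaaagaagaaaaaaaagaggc
In ANLN the capitals are 2 CHR matches side by side, 1 on each strand, and the printed stretch holds no CCAAT match, unlike that of PLK1. On either strand, a CHR match lay in 72.4% of the 29 mitotic promoters in the table and in 16.6% of all 27305, and CCAAT in 75.9% and 35.7%. CCAAT was not particular to mitotic genes. It lay in 55.9% of replication, 51.9% of p53 target, 61.9% of stress response and 63.2% of NRF2 target promoters, and in 33.3% of those of the inflammatory list. An E2F match (TTTGGCGC, TTTCGCGC or TTTCCCGC) lay in 58.8% of the 34 replication promoters and in 2.79% of all.

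PLK1, the kinase that drives mitotic entry, went from 175, 185 and 197 to 3.78, 2.81 and 4.82 CPM in A549 and from 116, 120.2 and 102 to 25.1, 22.0 and 23.6 in MDA-MB-231. NUF2, a kinetochore subunit, went from 103, 107 and 76.3 to 0.585, 1.21 and 0.958 CPM in A549 and from 110.3, 107 and 106 to 26.3, 24.9 and 29.0 in MDA-MB-231. The controls of the 2 lines were close for NUF2, and the siRNA1 libraries were far apart. MCM10, a DNA replication factor, had a difference of -4.95 ± 0.10, from 122, 127 and 119 to 2.02, 1.82 and 2.00 CPM in A549 and from 58.6, 61.6 and 58.6 to 30.2, 28.7 and 28.8 in MDA-MB-231. E2F2 fell by 5.12 in A549 and by 0.45 in MDA-MB-231, and FAM111B, a replication-linked protease, had the most negative difference of all genes past the level set for naming, -5.16 ± 0.15. The BLM partners RMI1 and RMI2 and the nuclease EXO1 fell in both, EXO1 from 88.0, 90.1 and 79.1 to 1.22, 1.91 and 1.74 CPM in A549 and from 64.2, 64.8 and 60.2 to 32.0, 28.9 and 27.2 in MDA-MB-231. TOP3A fell by 0.77 and 0.35.

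Other genes fell strongly in both lines without belonging to the cell cycle lists. RPS9, a protein of the small ribosomal subunit, went from 445, 534 and 456 to 21.7, 17.7 and 21.5 CPM in A549 and from 287, 288 and 239 to 30.0, 35.4 and 34.2 in MDA-MB-231. The other 41 ribosomal protein genes had MDA-MB-231 values between -0.61 (RPL3) and 0.27 (RPS12), so RPS9 lay apart from them at -3.03. HADHA, of mitochondrial fatty acid oxidation, went from 294, 296 and 298 to 28.7, 30.1 and 34.8 CPM and from 219, 229 and 214 to 40.8, 41.5 and 44.6. The groups were far apart in both lines for both genes. The augmin subunit HAUS1 (-3.62 and -2.85), the dynein light chain DYNLT1 (-3.71 and -2.77) and the efflux pump ABCG2 (-2.99 and -2.43) fell as well.

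Shared responses whose difference was bounded within 0.5 on the log2 scale numbered 681 higher (5.46%) and 694 lower (5.56%). The lowest of these were the clathrin adaptor subunit AP2M1, from 227, 238 and 254 to 56.5, 51.2 and 59.9 CPM in A549 and from 249.7, 258 and 226 to 48.5, 47.8 and 48.1 in MDA-MB-231, the splicing factor SF3A3 (-1.99 and -2.14), the phosphoinositide phosphatase FIG4 (-2.33 and -2.18), BUD13 (-2.19 and -2.09) and the Golgi protein GOPC (-2.03 and -1.94). The highest included SLC2A3, the histone demethylase KDM6B (1.64 and 1.52) and the co-chaperone DNAJB2 (1.66 and 1.52). All 3 tested metallothioneins rose in both lines (background 15.9%), MT1F by 3.33 and 3.51, though these short genes are close copies of one another.

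The A549 libraries with the other 2 BLM siRNAs share the A549 controls with siRNA1, so their values are set side by side without a count or a test of likeness. In a fit of the 12 A549 libraries with 14098 genes, 10490 genes (74.4%) differed from control with siRNA1, 9055 (64.2%) with siRNA2 and 9067 (64.3%) with siRNA3. BLM changed by -6.05, -2.91 and -3.60 with siRNA1, siRNA2 and siRNA3. For genes opposite between the lines the 3 A549 values were, in the same order, 3.96, 3.40 and 2.31 for FBN1, 2.51, 1.40 and 3.32 for ANKRD1, and 1.66, 0.46 and 2.81 for CPA4. ASNS had -2.11, -1.26 and -2.51, CHAC1 -1.17, -1.85 and -3.71, and HLA-B -1.51, -1.40 and -1.88. CXCL2 had -2.34, -0.35 and -1.20, and the siRNA2 value was not called. These 7 genes, chosen after their values were seen, had 1 sign with all 3 siRNAs in A549. Many other opposite genes named above did not. CTGF had 0.74, -1.77 and 2.34, CYR61 0.52, -1.20 and 2.70, DDB2 1.64, -0.44 and 0.71 and LINC02582 1.67, 0.84 and -0.45. MMP9 had -4.19, -0.71 and 1.11, OASL -1.78, 0.39 and 0.67, SLC7A11 -1.12, -1.32 and 0.46 and EPCAM 1.81, 4.49 and -0.41. The siRNA2 value of OASL and the siRNA3 values of SLC7A11 and EPCAM were not called. In these genes the 3 siRNAs gave A549 values on both sides of 0, and the differences between siRNAs were not tested.

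Among genes that fell with siRNA1 in both lines, several had values near or above 0 with the other siRNAs. RPS9 had -4.56, 0.11 and -0.01 in A549, HADHA -3.26, 0.40 and 0.37, DYNLT1 -3.72, -0.13 and 0.63, and AP2M1 -2.11, 0.12 and 0.84. PLK1 had -5.62, -0.36 and -0.68, and MCM10 -5.98, -1.92 and -1.45. For PLK1 and MCM10 all 3 values were below 0, with the siRNA1 value the lowest.

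**Figure D4:**
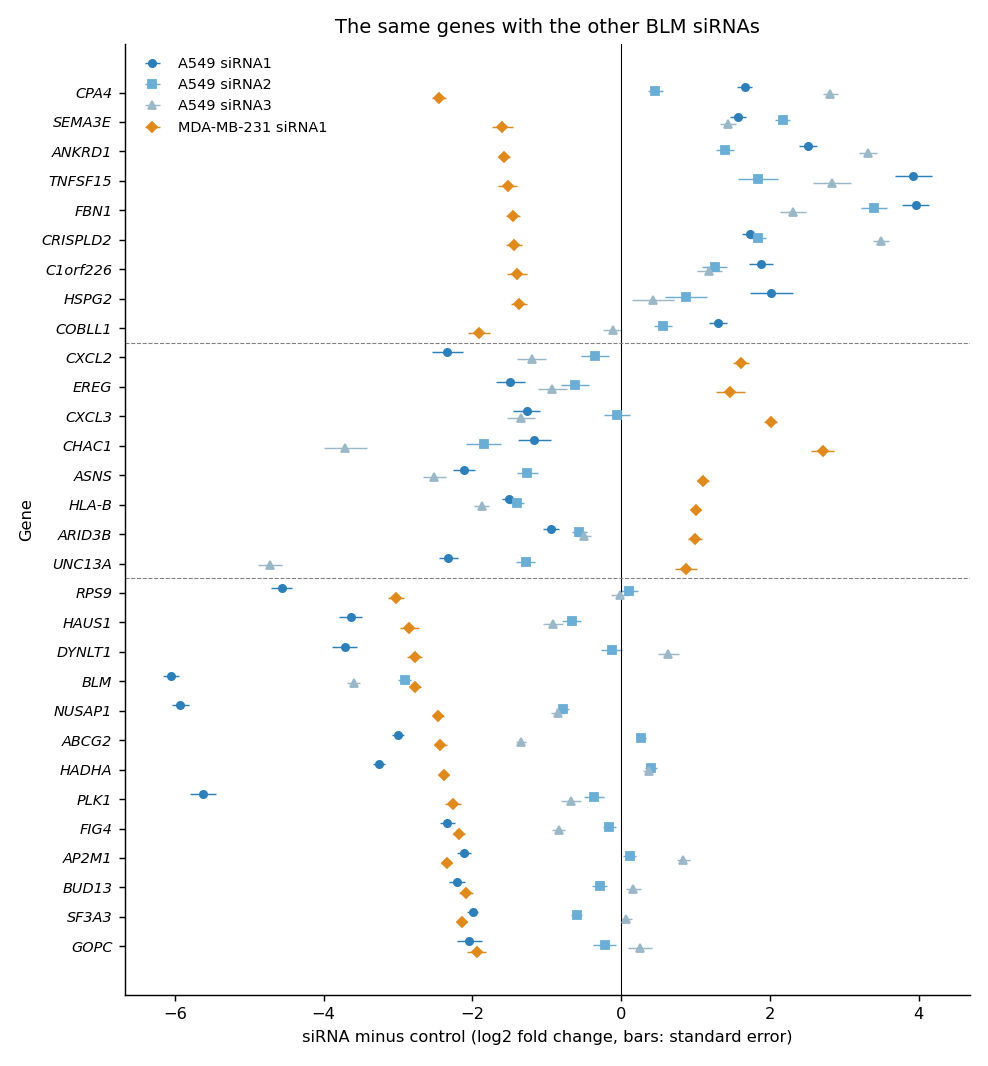
Log2 fold change against control (horizontal axis) with SE bars for genes chosen for their siRNA1 responses, in A549 with siRNA1, siRNA2 and siRNA3 (blue shades) and in MDA-MB-231 with siRNA1 (orange diamonds); dashed lines separate genes opposite with A549 higher, opposite with A549 lower and shared lower. RPS9 and HADHA lie below -3 with siRNA1 in A549, below -2 in MDA-MB-231 and near 0 with siRNA2 and siRNA3.

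The remaining lists ranged between these patterns. Of 12 tested fibrinogen, complement and serpin genes, 10 rose in A549 and 7 in MDA-MB-231 (backgrounds 39.0% and 27.7%), and the difference was higher in A549 for 11 (31.9%). C3, the central complement component, rose by 2.49 and 0.27, the MDA-MB-231 rise not being called without the first or the third siRNA1 library or the third control of that line (differences 2.24, 2.22 and 2.25). Against the same backgrounds, 15 of 24 TGF-β genes rose in A549 and 11 in MDA-MB-231, and 19 of 28 lysosome and autophagy genes rose in A549 and 10 in MDA-MB-231, the last near its background. Of 24 cholesterol synthesis genes, 16 fell in A549 and 13 in MDA-MB-231, and of 18 genes of the ER unfolded protein response, 10 fell in A549 and 13 in MDA-MB-231 (backgrounds 40.3% and 28.9%). The ER chaperone HSPA5 (BiP) fell in both lines (-0.82 and -0.21), while the ATF4 targets described above split. Of 20 immediate early genes, 4 were opposite with A549 lower (NR4A1, DUSP1, DUSP5 and IER3, background 5.63%). None of the 4 kept that class under all other scalings, and JUN rose in both lines by 2.70 and 0.41. Of 35 replication-dependent histone genes, 5 passed the filter, and the mucin list had 7 of 23 tested. Of these, MUC5B (2.503 and -1.29), AGR2 (1.00 and -0.97) and MUC5AC (0.38 and -1.78) were opposite with A549 higher (background 7.16%). The A549 groups of MUC5AC overlapped, and its class held in 15 of 23 alternative fits.

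**Figure D5:**
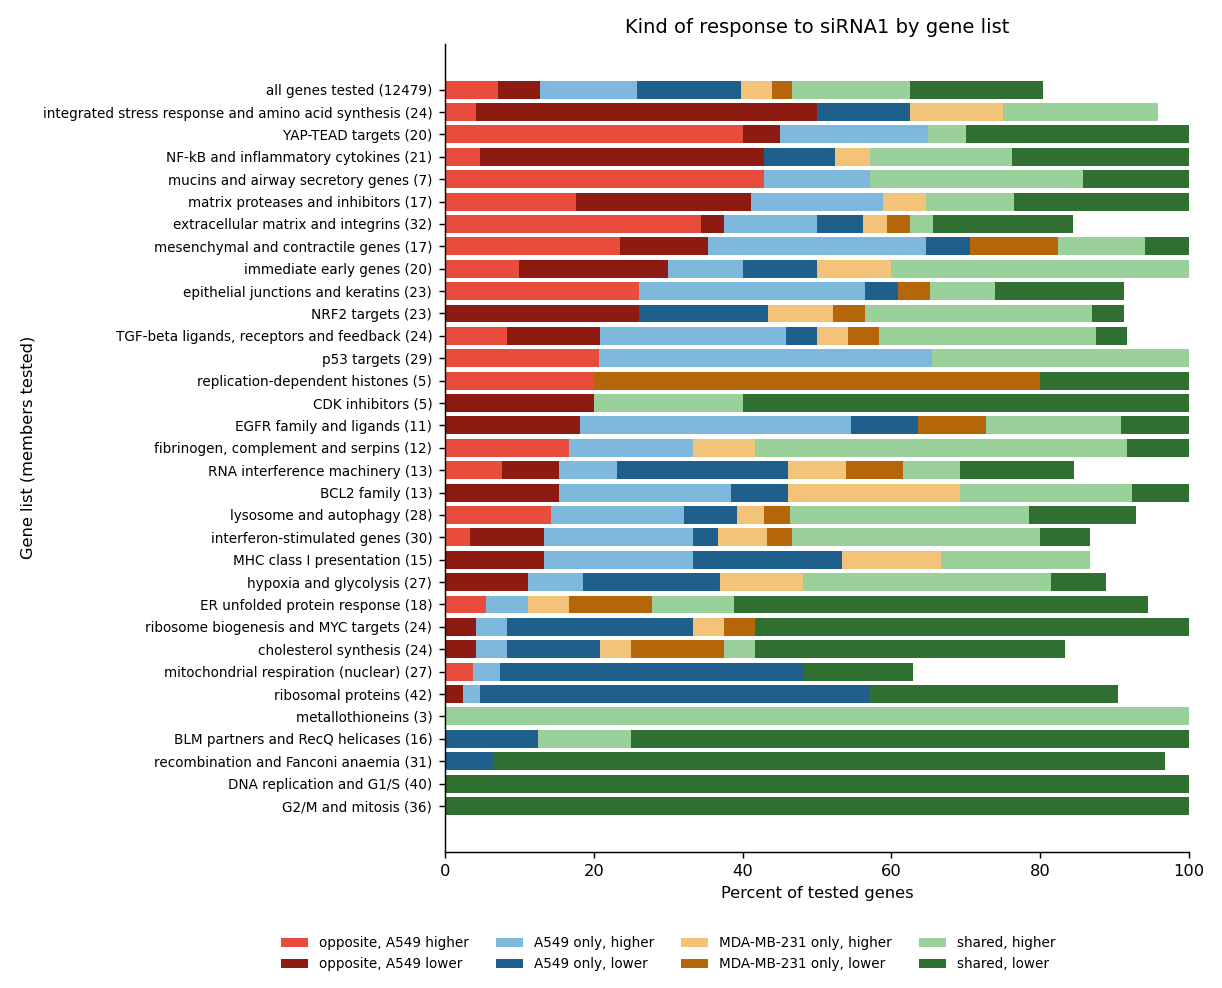
Share of tested genes in each kind of response (horizontal axis, percent) for all 12479 genes and for 32 lists, ordered by the share that was opposite; white is neither. Among all genes 12.8% were opposite, among the 24 stress response genes 12 were, and mitosis and replication genes were all shared and lower.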

How the data were processed

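Total RNA from 12 libraries was sequenced after ribosomal RNA depletion with a stranded kit, per the labels' protocols. The authors deposited 1 gene table per library with expected counts and TPM values estimated by RSEM on hg19, per the submitters' processing notes. For the RSEM version, aligner, annotation and use of strand, nothing is stated (not given in the sources used here). Here the expected counts were rounded to whole numbers. Genes with a CPM of at least 1 in 3 or more libraries of each line were tested in 1 fit of all 12 libraries with edgeR 4.0.16 (TMM factors, quasi-likelihood F test on group means) in R 4.3.3, with Benjamini-Hochberg adjustment over the genes tested and a threshold of 0.05. CPM values are TMM-scaled, over the tested genes for single genes and over all genes in the files for marker levels. An opposite gene was called in both lines with unlike signs and in the difference. Deposited TPM values served as an alternative (limma 3.58.1, log2 of TPM plus 1), as did DESeq2 1.42.0, other scalings and filters, and leaving out each library. The scripts were tested on simulated data.

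The 12 libraries held 30143047 to 40328208 counts, of which the tested genes took 96.59% to 98.22%. Named genes were BLM and the 10 genes per direction with the largest smaller change among opposite and among shared genes. The 8 highest and lowest bounded line-only genes per line were named too. So were the 5 per direction with the largest smaller change among shared genes of bounded difference, and the 5 highest and lowest differences. Each list gave up to 4 members with the smallest adjusted p of the difference, and its opposite members. Genes outside the lists, except BLM, needed a mean log2 CPM of at least 1 in each line. Other list members were named after their values were seen. Some genes that these rules name are not reported here. The comparison and the gene lists were chosen with earlier results of these data known. The C/EBP-ATF, kappa B and antioxidant response motifs were added after the data were seen. The antioxidant motif (TGACNNNGC) lay in 26.3% of NRF2 target promoters and in 13.6% of all. It was not particular to NRF2 targets, with 33.3% of stress response, 22.2% of p53 target and 20.7% of mitotic promoters. For replication and inflammatory promoters the shares were 20.6% and 16.7%.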

Additional observations from a re-analysis of the deposited data

Results flagged for a closer look

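The response to siRNA1 differed between A549 and MDA-MB-231, by the test of the difference itself, for 8505 of 12479 genes, and 1595 of these had opposite responses called in both lines. The opposite genes ranked highest by the smaller of their changes are given with the difference, A549 minus MDA-MB-231, on the log2 scale. With A549 higher these were TNFSF15 (5.46), FBN1 (5.43), CPA4 (4.12), ANKRD1 (4.10), LINC02582 (3.48), HSPG2 (3.40), C1orf226 (3.29), COBLL1 (3.22), CRISPLD2 (3.19) and SEMA3E (3.18). With A549 lower they were CXCL2 (-3.93), CHAC1 (-3.86), CXCL3 (-3.27), ASNS (-3.20), UNC13A (-3.18), EREG (-2.94), HLA-B (-2.50), LOC728392 (-2.10), UCKL1-AS1 (-2.03) and ARID3B (-1.92). The A549 fall of UCKL1-AS1 came from overlapping groups and was not called in the fit of A549 libraries alone. The BLM knockdown was deeper in A549, and its part in these differences was not tested.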

How the results depend on the processing

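Under the other scalings, filters, tests and fits without 1 library, the counts of called genes stayed within 1.5 times those of the report. Requiring an absolute log2 fold change of at least 1 left 3096 genes in A549, 733 in MDA-MB-231, 2735 differences, 61 opposite, 1894 line-only (4223 in the report) and 412 shared. Changes under 1 counted as not called here. The 1894 therefore include genes that were shared or opposite in the report, such as E2F2 and MDM2, and are not a subset of the 4223. Of the 1595 opposite genes, 1494 were opposite under DESeq2 size factors, 1262 under upper quartile factors, 1145 under library totals and 1033 with TPM values. Leaving out 1 library gave 9435 to 10046 calls in A549, 6247 to 7686 in MDA-MB-231, 8048 to 8820 differences, 1325 to 1822 opposite, 4012 to 4437 line-only and 3786 to 4513 shared genes. For the differences of single named genes, 5656 of the alternative values kept direction and side of the threshold, 68 no longer passed it and 18 newly passed. With the replicate number as a block there were 8584 differences, 9956 calls in A549, 7233 in MDA-MB-231, 1669 opposite, 4136 line-only and 4330 shared genes. Same-numbered libraries had correlations of deviations of -0.0805, 0.069 and 0.266 in A549 and -0.191, 0.0576 and -0.0705 in MDA-MB-231, and not every library correlated best with its own. With 3 libraries per group these values cannot decide whether same-numbered libraries were paired. Genes at a few reads per library in 1 group, such as MMP9 in A549 with siRNA1, have folds that depend on those reads.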
